A study of Mus musculus with 6 samples.

Results

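The 10 dendritic cell genes Batf3, Irf8, Xcr1, Xcl1, Clec9a, Flt3, Zbtb46, Cd209a, Siglech and Fscn1 were followed in mouse lung carrying KP tumours and in the KP cell line itself. They were taken from a list by name, and all 10 were found among the 20687 gene symbols of the deposited table. The study measured RNA in 3 whole-lung samples and 3 samples of the cell line, all labelled C57BL/6, to compare chemokine expression between the line and tumour-bearing lung. Each lung sample pooled tissue from 3 mice. The description can be read as each pool coming from its own experiment, but it does not settle this. The mice had been given 100000 KP cells into the tail vein 28 days before the lungs were taken and digested with collagenase. The KP cell line samples were triplicate RNA preparations of the injected line, which the title ties to lung tumours. The sources used here give neither the genotype of the line nor the age and sex of the mice. No lung without tumour was analysed here, so a difference between the groups is one between a whole organ and 1 cell line, and what resident lung cells express and what the tumours induce cannot be told apart. Separate cultures are not stated for the cell line preparations, so the p-values rest on a spread between samples that may be technical.

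Dendritic cells capture antigen, carry it to lymphoid tissue and present it to T cells. They are usually divided into type 1 conventional cells (cDC1), which present antigen of dead cells to CD8 T cells, type 2 conventional cells (cDC2), which mainly prime CD4 T cells, and plasmacytoid cells (pDC), which produce type I interferon. The receptor tyrosine kinase Flt3 and its ligand drive their development, the transcription factors Irf8 and Batf3 are needed for cDC1, and cDC1 carry Xcr1, the receptor for the chemokine Xcl1 that natural killer cells and activated CD8 T cells release. In the lung, migratory dendritic cells take airway and tumour antigen to the draining nodes.

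The promoters of Clec9a and Xcr1, 2 surface receptors that mark cDC1, and of Fscn1, the gene that went the other way, are shown because they differ in the letters they hold. The windows searched reach from 250 bases before to 50 bases after the start site (RefSeq, build GRCm38.p6). All 10 genes matched, with 11 windows. Capitals mark TTTC and TGA with any 4 bases between them, a spacing of an Irf half-site and an AP-1 half-site at which Batf and Irf factors can bind together, in Clec9a (chr6:129408772-129408831, plus strand) and, read on the opposite strand, in Xcr1 (chr9:123862120-123862179, minus strand). In Fscn1 (chr5:142960282-142960341, plus strand) they mark the cAMP response element TGACGTCA and the TATA box TATAAAA.
Clec9a: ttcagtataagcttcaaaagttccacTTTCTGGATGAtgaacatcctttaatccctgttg
Xcr1: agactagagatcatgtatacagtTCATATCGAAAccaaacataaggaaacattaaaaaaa
Fscn1: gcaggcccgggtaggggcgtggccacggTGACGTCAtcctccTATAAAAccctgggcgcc
That AP-1-IRF composite element, searched on both strands, was in 2 of the 11 windows and in 4.56% of 32851 mouse promoter windows of the same length. TGACGTCA, on both strands, was in 1.79% of them, and TATAAAA on the gene's strand in 3.27%, which among the 10 genes included Fscn1 and Irf8. The ETS-IRF composite element, GGAA and GAAA with any 2 bases between, was found for Cd209a alone (2.72% of all windows) and the AP-1 element TGANTCA for Zbtb46 alone (7.81%). The interferon response element, GAAA and GAAA with any 2 bases between, and GAGGAAGT, a core bound by PU.1, were in 3.44% and 3.20% of all windows and in none of the 11. All of these but the TATA box were searched on both strands. No matches of different motifs overlapped in the 11 windows. These matches are descriptions of letters, not of binding, and no binding was measured.

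Depth was similar across the samples, with 17786758 to 22862396 estimated counts each, and where no count was seen up to 3 counts are possible, or 0.120 to 0.173 CPM (CPM are counts scaled to a common library size after TMM scaling, and are the unit of all levels below unless stated). In each group 1 library stood apart. Across tested genes, log2 CPM of lung replicate 2 correlated at 0.933 and 0.901 with lung replicates 1 and 3, which correlated at 0.973 with each other, and cell line replicate 1 correlated at 0.960 and 0.958 with replicates 2 and 3, which correlated at 0.984. Relative to the mean of the other lung samples, after adding 0.5 CPM to both, lung replicate 2 had a median log2 difference of 0.70 for genes in the shortest quartile of transcript length (up to 1605 bases) and of -0.97 in the longest (3813 bases or more). Fold changes of the 10 genes are therefore also given with these libraries left out.

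Of the 10 genes, 9 were higher in the lung samples and Fscn1 was lower. All 10 were abundant enough to be tested, which a gene can be through its level in 1 group alone. With 10 or more counts required in every sample, 6 of them were tested, 5 higher and 1 lower. Under the main filter all 10 passed the threshold of adjusted p below 0.05 in edgeR's quasi-likelihood test over 15212 genes. Of all genes tested, 48.8% passed it, 31.3% higher and 17.5% lower in lung, so a rise in lung was common in this comparison. The samples of the 2 groups did not overlap for any of the 10 genes, which was also so for 35.6% of all genes with lung higher and 26.5% with lung lower. The median log2 fold change of the 10 genes was 3.26, against 0.08 over all genes tested. In a whole organ, fewer cells of a type and less RNA per cell cannot be told apart.

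**Figure D1:**
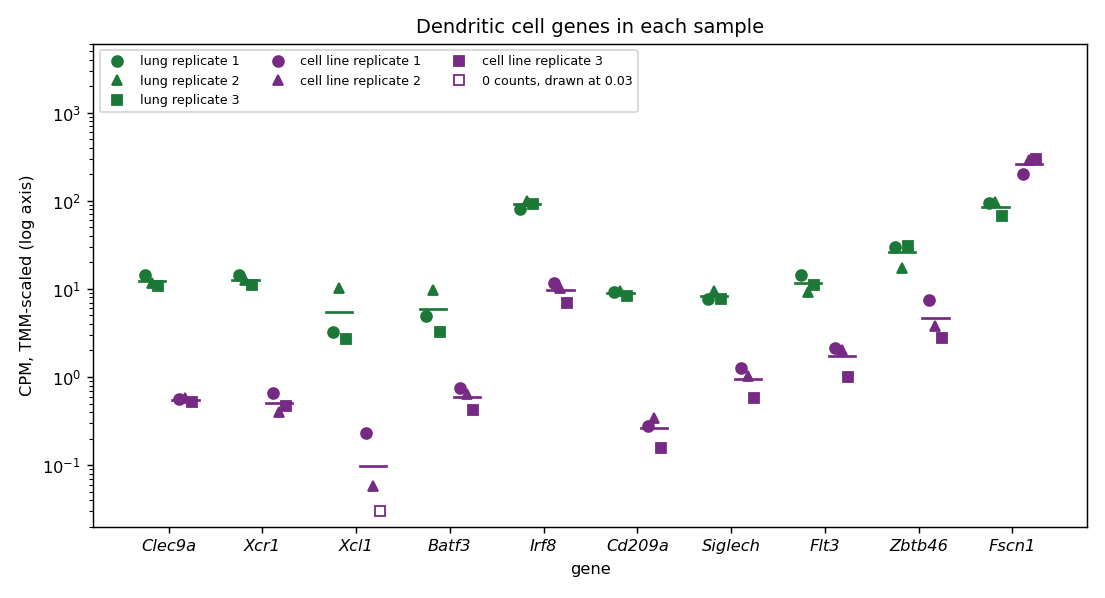
CPM on a log axis for the 10 dendritic cell genes in the 3 lung samples (green) and the 3 cell line samples (purple), with bars at the group means and an open symbol for 0 counts. For 9 genes every lung sample lies above every cell line sample, Irf8 stands highest among them at 90.98 CPM in lung, and Fscn1 is reversed.

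Clec9a, a C-type lectin receptor by which cDC1 recognise dead cells, stood at 14.3, 11.6 and 10.9 CPM in lung replicates 1, 2 and 3 and at 0.560, 0.576 and 0.527 CPM in the cell line samples. The 2 groups were far apart and each was tight, the lowest lung sample being 18.9 times the highest cell line sample. The difference was 4.45 on the log2 scale (SE 0.34, edgeR adjusted p = 3.91e-05). Xcr1, the chemokine receptor of cDC1, stood at 14.5, 12.6 and 11.1 CPM in lung and at 0.653, 0.403 and 0.474 CPM in the cell line. Its lung samples also lay close together, and the mean was 24.9 times that of the cell line (log2 fold change 4.61 with SE 0.37, adjusted p = 4.47e-05 by edgeR). Only 30 estimated counts of Xcr1 and 32 of Clec9a were assigned over the 3 cell line samples, against 861 and 829 in lung.

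Xcl1, the ligand of Xcr1, was higher in lung in all 3 samples but uneven among them. It stood at 3.24 and 2.70 CPM in lung replicates 1 and 3 and at 10.4 CPM in lung replicate 2. The cell line samples were at 0.233, 0.0576 and 0 CPM, 6 counts in all. Lung replicate 2 was the high one, and all cell line samples were at or near the limit that a count of 0 allows. The log2 fold change was 5.66 (SE 0.96, edgeR adjusted p = 0.00170), 4.73 with lung replicate 2 left out and 7.32 with cell line replicate 1 left out, which held 5 of the 6 counts. Among markers of natural killer and CD8 T cells, the known sources of Xcl1, lung replicate 2 was not uniformly the high sample. Gzma, a granzyme, stood at 12.2, 25.9 and 25.4 CPM in lung replicates 1, 2 and 3, and Prf1, the pore-forming protein perforin, at 5.79, 5.53 and 12.1 CPM. Gzma and Prf1 were picked with their values known. The sum of the 14 listed genes, Xcl1 included, was 191, 199.9 and 192 CPM, with single genes moving in opposite ways beneath it. Of the 13 markers in that list other than Xcl1, 12 rose in lung, beside 31.3% of all genes tested. They included Ccl5, a T cell and natural killer cell chemokine (39.0 ± 6.96 CPM, SD over 3 samples, against 1.54 ± 0.467 CPM), Nkg7, a cytotoxic granule protein (29.5 ± 6.35 against 1.13 ± 0.299 CPM), and Cd8a, the CD8 co-receptor (40.2, 21.1 and 25.4 against 2.47, 2.19 and 1.317 CPM). Eomes, a transcription factor of cytotoxic lymphocytes, did not pass (3.56 ± 1.04 against 2.69 ± 0.338 CPM, edgeR adjusted p = 0.400).

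Irf8, the interferon regulatory factor that specifies cDC1 and that B cells and macrophages also express, was the most abundant of the 9 genes in lung. It stood at 81.1, 99.4 and 92.5 CPM in lung and at 11.8, 10.3 and 6.90 CPM in the cell line. The lung values spanned a narrow range, and cell line replicate 3 was the lowest sample. The log2 fold change was 3.23 (SE 0.29, edgeR adjusted p = 7.68e-05). Batf3, the AP-1 family factor that maintains Irf8 in cDC1, stood at 4.87, 9.64 and 3.22 CPM in lung and at 0.747, 0.634 and 0.422 CPM in the cell line. As with Xcl1, lung replicate 2 was highest. The log2 fold change of Batf3 was 3.28 (SE 0.54, edgeR adjusted p = 0.00143), and 2.68 without lung replicate 2, a move of over 1.5 times in fold.

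Xcl1 and Batf3 have the shortest transcripts of the 10 genes, at a mean of 523 and 754 bases, and both were high in lung replicate 2, at 1.65 and 1.16 on the log2 scale relative to the mean of the other lung samples (0.5 CPM added). Zbtb46, with the longest mean of 4624 bases, was lowest there, at -0.79 on the same scale, and Flt3 at 3662 bases stood at -0.44. Xcr1 at 4450 bases stood at -0.03, above the -0.97 of its length quartile, and Cd209a at 1468 bases stood at 0.12, below the 0.70 of its own. The part of transcript length in the values of Xcl1, Batf3, Flt3 and Zbtb46 in that library was not tested.

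**Figure D2:**
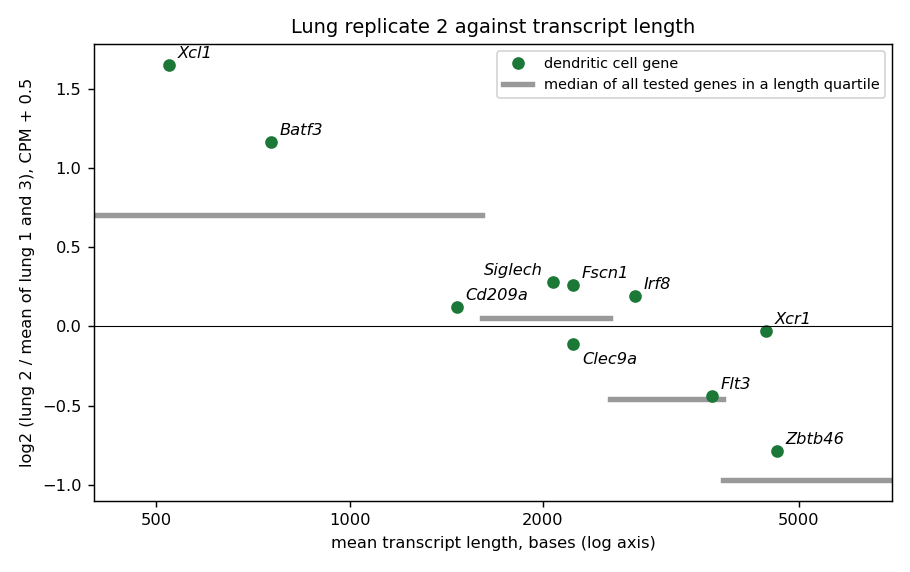
Log2 ratio of lung replicate 2 to the mean of lung replicates 1 and 3, with 0.5 CPM added to both, against mean transcript length in bases (log axis), for the 10 genes (points) and as the median of all tested genes in each length quartile (grey bars, which end at the plot's limits). Xcl1 and Batf3 lie highest at 1.65 and 1.16, and Zbtb46 lies lowest at -0.79.

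Cd209a, a lectin of the DC-SIGN family on cDC2 and monocyte-derived cells, was the most even of the 10 genes across the lung samples. It stood at 9.11, 9.55 and 8.36 CPM in lung and at 0.280, 0.346 and 0.158 CPM in the cell line, 15 counts over its 3 samples. The groups were separated by at least 24.2 times between their nearest samples, the widest gap of the 10 genes (log2 fold change 5.08 with SE 0.42, adjusted p = 5.30e-05 by edgeR). Siglech, a Siglec family receptor of pDC, stood at 7.63, 9.38 and 7.58 CPM in lung and at 1.26, 1.04 and 0.580 CPM in the cell line. Its lung mean was 8.55 times that of the cell line (log2 fold change 3.08 with SE 0.40, adjusted p = 0.000422 by edgeR).

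Flt3 stood at 14.4, 9.29 and 11.1 CPM in lung and at 2.15, 2.02 and 1.001 CPM in the cell line. Lung replicate 1 was the highest sample and cell line replicate 3 the lowest (log2 fold change 2.75 with SE 0.40, adjusted p = 0.000740 by edgeR). Zbtb46, a zinc finger repressor that marks conventional dendritic cells among myeloid cells and is also made by endothelium, stood at 29.9, 17.3 and 30.8 CPM in lung and at 7.56, 3.74 and 2.74 CPM in the cell line. It had the narrowest gap of the 9 higher genes, the lowest lung sample being 2.29 times the highest cell line sample, and cell line replicate 1 stood above the other cell line samples. The log2 fold change was 2.47 (SE 0.44, edgeR adjusted p = 0.00218), 2.99 without cell line replicate 1 and 3.23 without that library and lung replicate 2. The 8 endothelial markers summed to 1241 to 2079 CPM in lung and to a mean of 11.8 CPM in the cell line. All 8 rose, beside 31.3% of all genes tested. Their part in the lung level of Zbtb46 was not tested.

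Fscn1, which encodes the actin-bundling protein fascin of mature dendritic cell protrusions and of many invasive tumour cells, fell. It stood at 94.6, 96.4 and 66.6 CPM in lung and at 201, 292 and 299.5 CPM in the cell line. Every cell line sample exceeded every lung sample, with replicate 1 the lowest of them and lung replicate 3 the lowest of all. The cell line mean was 3.08 times the lung mean (log2 fold change -1.62 with SE 0.28, adjusted p = 0.00195 by edgeR). Fscn1 was the only 1 of the 10 genes with more counts in the cell line than in lung, 15060 against 5829. The other fascin genes, Fscn2 and Fscn3, had 9 and 2 counts over the lung samples and 0 in the cell line and were not tested.

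Leaving out the libraries that stood apart changed no direction and no call of the 10 genes. Without lung replicate 2 the log2 fold change was 4.43 for Clec9a, 4.56 for Xcr1, 3.11 for Irf8, 4.98 for Cd209a, 2.92 for Siglech, 2.83 for Flt3, 2.64 for Zbtb46 and -1.78 for Fscn1. Without cell line replicate 1 it was 4.45 for Clec9a, 4.82 for Xcr1, 3.39 for Irf8, 3.46 for Batf3, 5.13 for Cd209a, 3.33 for Siglech, 2.93 for Flt3 and -1.80 for Fscn1. With both left out it was 4.50 for Clec9a, 4.84 for Xcr1, 6.46 for Xcl1, 3.33 for Irf8, 2.94 for Batf3, 5.10 for Cd209a, 3.23 for Siglech, 3.09 for Flt3 and -1.88 for Fscn1.

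The table gives counts by transcript, and Fscn1 was split differently in the 2 groups. Fscn1-201, the full-length form, stood at 69.5, 61.0 and 44.3 CPM in lung and at 171, 264 and 272 CPM in the cell line. Fscn1-207 went the other way, at 22.2, 35.3 and 19.3 CPM in lung and at 10.9, 0 and 0 CPM in the cell line, so that it held 23.5%, 36.6% and 29.0% of the gene's counts in lung and 5.42%, 0% and 0% in the cell line. The groups did not overlap for either form, and the gene's fall was carried by Fscn1-201. Fscn1-202, a short model, held 8.92% to 9.69% in the cell line and 0% to 3.58% in lung. These are estimates with no test, because reads from shared exons are divided by the quantification and its uncertainty per transcript was not used here.

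The 2 main Fscn1 forms differ inside the first coding exon, and the bases at that difference are shown because a repeat lies on both of its ends. Fscn1-207 lacks 483 bases, or 161 whole codons, of the first exon of Fscn1-201 (GENCODE M21, GRCm38, chr5:142960648-142961130, plus strand), beginning 199 bases after the first coding base. The missing stretch starts with GT and ends with AG. Capitals mark the 13 bases that both begin the missing stretch and follow it.
Fscn1-201 at the start of the stretch: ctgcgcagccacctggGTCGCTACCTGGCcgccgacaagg
Fscn1-201 at the end of the stretch: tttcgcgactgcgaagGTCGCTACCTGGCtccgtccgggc
Fscn1-207 across the junction: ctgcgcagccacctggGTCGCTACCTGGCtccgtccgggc
The repeat occurs in both places of Fscn1-201 and is present once in the same stretch of Fscn1-207. Whether the counts given to Fscn1-207 come from a spliced RNA was not tested.

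**Figure D3:**
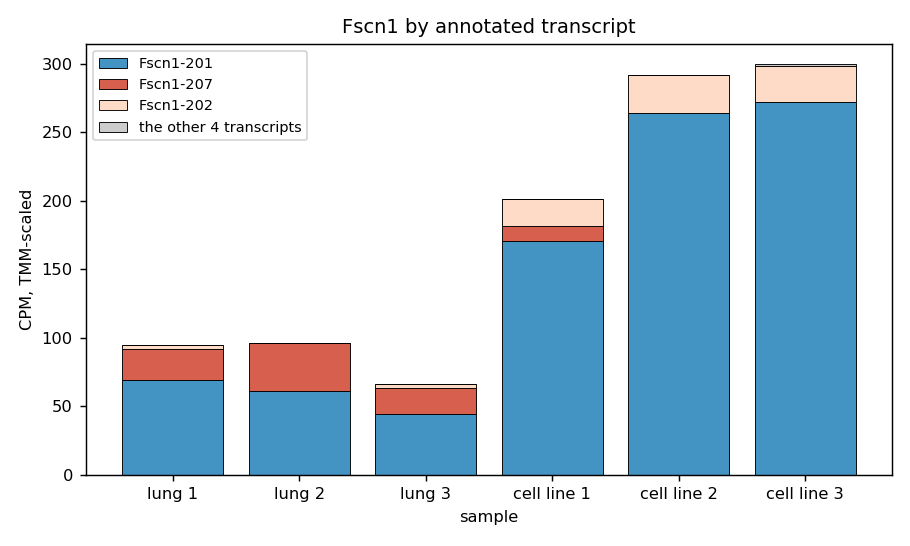
Stacked CPM of the annotated Fscn1 transcripts in each of the 6 samples, with bars starting at 0. Fscn1-207 makes up 19.3 to 35.3 CPM of the lung samples and 10.9, 0 and 0 CPM of the cell line samples, whose bars are mostly Fscn1-201.

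Other genes with several transcripts were mostly read as 1 form. Of 37 transcripts of the 10 genes in the table, 35 had counts in some sample, and Xcr1 and Xcl1 had 1 transcript each. Irf8-201 held 95.5% to 97.4% of the Irf8 counts in lung and 87.5% to 95.4% in the cell line, and Cd209a-201 held at least 97.5% in every sample. Zbtb46 differed, since Zbtb46-202, a form that ends before the last exons of Zbtb46-201 and has a shorter coding sequence (1302 against 1800 bases), held 10.1%, 21.3% and 4.49% in lung and 26.5%, 33.3% and 29.0% in the cell line. The cell line shares all lay above the lung shares, and the highest lung share was in replicate 2. For Siglech, the coding form Siglech-201 held 36.04% to 46.4% of the lung counts, and Siglech-204, annotated as a target of nonsense-mediated decay, held 16.03% to 27.9%. The coding form Batf3-201 held 65.2% to 73.6% of the Batf3 counts in lung.

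Per length, the order of the genes in lung changed. CPM per kilobase of annotated transcript was highest for Fscn1 (36.4 ± 5.76, SD over 3 samples) and Irf8 (32.8 ± 3.32), which did not differ beyond their spread. Xcl1 (10.4 ± 8.16), Batf3 (7.83 ± 4.44), Cd209a (6.13 ± 0.403), Clec9a (5.57 ± 0.687) and Zbtb46 (5.46 ± 1.25) followed, each within the spread of its neighbours. Lung replicate 2 was again the high sample for Xcl1 (6.19, 19.8 and 5.17 in replicates 1, 2 and 3) and Batf3 (6.28, 12.8 and 4.37). Their place above Cd209a therefore rests on that library. Siglech (3.94 ± 0.484), Flt3 (3.17 ± 0.701) and Xcr1 (2.86 ± 0.391) were lowest on this scale, with overlapping ranges of mean ± SD between neighbours. In the cell line, Fscn1 at 121 ± 24.4 stood far above Irf8 at 3.46 ± 0.951, and Xcr1 was lowest at 0.115 ± 0.0290.

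The cell line samples held low counts of the 9 genes higher in lung, with Xcl1 at 0 in replicate 3, and of leukocyte markers as well. All 12 B and plasma cell markers were present in every cell line sample, and their sum there was 42.4%, 38.7% and 22.6% of the mean lung sum in replicates 1, 2 and 3. The corresponding shares were 15.3%, 11.5% and 7.38% for 6 markers of all leukocytes, 12.4%, 10.9% and 6.53% for 10 T cell markers, 1.66%, 1.44% and 0.939% for 12 monocyte and macrophage markers, and 0.735%, 0.796% and 0.554% for endothelial markers. Among the 9 higher genes the mean cell line level was 17.99% of the lung level for Zbtb46, 14.8% for Flt3, 11.7% for Siglech, 10.6% for Irf8, 10.2% for Batf3, 4.53% for Clec9a, 4.01% for Xcr1, 2.90% for Cd209a and 1.79% for Xcl1. These shares lay between those of the B cell and the macrophage marker sums. Lyz2 alone made up 6759 of the 7854 CPM of the macrophage sum in lung, however. The median share over the single macrophage markers was 3.99%, which lay above the shares of Cd209a and Xcl1. All T cell, B cell and leukocyte markers tested rose in lung, as did 11 of 12 macrophage and 6 of 6 neutrophil markers. Of 8 alveolar macrophage markers 7 rose and 1 fell, of 3 mast cell and basophil markers 1 rose and 1 fell, and of 5 KP and epithelial genes 1 rose and 2 fell. Over all genes tested 31.3% rose and 17.5% fell. The mast cell and basophil and the KP and epithelial counts are too small to be told apart from those shares. The part of leukocyte RNA in the cell line levels was not tested, and detection there does not place a gene in KP cells.

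Cell line replicates 2 and 3 differed in the leukocyte markers. Of the 10 genes, Irf8 and Flt3 also differed beyond counting error. The level in replicate 3 was 0.583 times that in replicate 2 for the B cell markers (95% exact binomial interval 0.559 to 0.609), 0.598 for the T cell markers (0.507 to 0.704) and 0.651 for the macrophage markers (0.607 to 0.697). It was 0.669 for Irf8 (0.530 to 0.843) and 0.497 for Flt3 (0.268 to 0.892). For Fscn1 it was 1.03 (0.988 to 1.07). For Clec9a (0.915, 0.342 to 2.45), Xcr1 (1.18, 0.390 to 3.72), Siglech (0.559, 0.239 to 1.25), Batf3 (0.665, 0.232 to 1.82), Cd209a (0.457, 0.0740 to 2.14) and Zbtb46 (0.732, 0.498 to 1.07) the intervals included 1. These intervals cover counting error alone. The share of all genes with an interval that excludes 1 was not counted, and a link between Irf8, Flt3 and the leukocyte markers was not tested. At 7 to 18 counts a sample, a change like that of the B cell markers was not detectable for Clec9a, Xcr1, Siglech and Batf3. The same held for Cd209a, at 6 and 3 counts in replicates 2 and 3, and for Xcl1, at 1 and 0 counts.

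**Figure D4:**
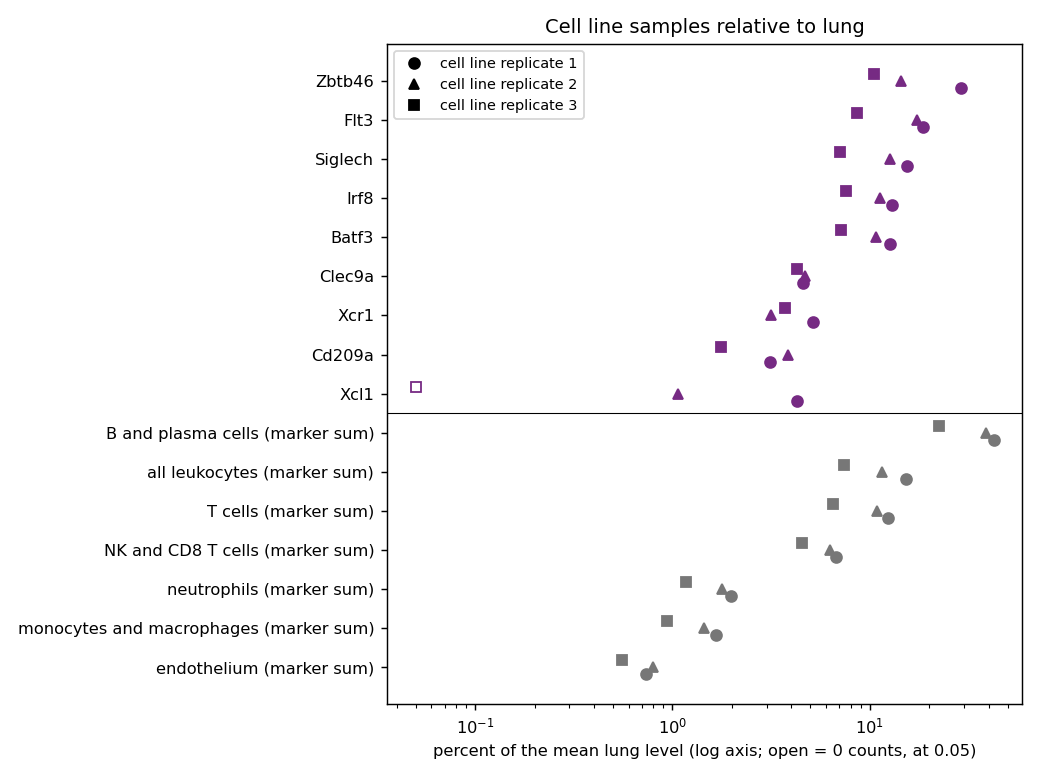
Level in each cell line replicate as a percent of the mean lung level (log axis) for the 9 genes higher in lung and for the sums of 7 marker lists. The B and plasma cell sum lies highest of the lists at 22.6% to 42.4% and endothelium lowest at 0.554% to 0.796%, and Zbtb46 is the highest of the genes.

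Genes that share the cDC1 programme were mostly higher in lung. Each list count from here on stands beside the 31.3% higher and 17.5% lower over all genes tested. Of 12 cDC1 genes tested, 10 rose and 2 did not pass, with a median log2 fold change of 3.26, and of the 8 that are not among the 10 genes, 6 rose. Naaa, a lysosomal amidase, stood at 104.9 ± 10.4 against 30.1 ± 3.56 CPM, and Wdfy4, which is needed for cross-presentation by cDC1, at 89.1 ± 6.81 against 19.3 ± 7.24 CPM. Cadm1, an adhesion molecule of cDC1 and epithelium, did not pass (125 ± 40.9 against 123 ± 4.11 CPM, log2 fold change 0.02 with SE 0.30, adjusted p = 0.970 by edgeR). Rab7b, an endosomal GTPase, did not pass either, at 22.5 ± 1.27 against 18.8 ± 1.05 CPM (edgeR adjusted p = 0.352).

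Of 9 cDC2 genes tested, 8 rose and Klf4, a transcription factor shared with epithelium, did not pass (112 ± 16.3 against 68.5 ± 29.6 CPM, edgeR adjusted p = 0.113). The median log2 fold change was 5.08, the value of Cd209a itself. Other than Cd209a, 7 of 8 rose. Sirpa, an inhibitory receptor of cDC2 and macrophages, stood at 158 ± 44.7 against 7.63 ± 3.21 CPM, and Itgam, the integrin CD11b, at 32.6 ± 20.7 against 0.926 ± 0.357 CPM. Mgl2, a lectin of cDC2 and macrophages, stood at 63.7, 59.8 and 49.97 CPM in lung and at 1 count over the cell line samples. Clec4a4, another cDC2 lectin, had 15 counts in lung and 4 in the cell line and was not tested.

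Of 15 pDC genes tested, 14 rose and 1 fell, with a median log2 fold change of 3.30. Other than Siglech, 13 of 14 rose. Bst2, an interferon-induced membrane protein, stood at 135 ± 73.4 against 13.3 ± 8.06 CPM. Tcf4, a transcription factor needed for pDC identity, stood at 112 ± 43.5 against 44.1 ± 3.30 CPM. Irf7, an interferon regulatory factor of pDC, stood at 104.8 ± 35.8 against 3.13 ± 1.73 CPM. These genes were named by their lung level, and RNA of whole lung does not place them in pDC. Runx2, a factor of pDC exit from marrow and of bone, fell (16.2 ± 6.77 against 71.4 ± 9.45 CPM, log2 fold change -2.14 with SE 0.36, adjusted p = 0.00169 by edgeR). Ccr9, a chemokine receptor of pDC and gut-homing T cells, stood at 4.79 ± 0.550 against 0.467 ± 0.0849 CPM and was named after its values were seen.

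Genes of mature, migrating dendritic cells went both ways. Of 16 tested, 11 rose, 2 fell and 3 did not pass, with a median log2 fold change of 2.12. Other than Fscn1, 11 of 15 rose and 1 fell. Birc3, an inhibitor of apoptosis, stood at 54.95 ± 11.2 against 11.9 ± 3.62 CPM, Cd274, which encodes PD-L1, at 35.0 ± 20.2 against 3.18 ± 1.78 CPM, and Cd83, a maturation marker, at 32.7 ± 3.50 against 2.88 ± 1.12 CPM. Those that fell were Fscn1 and Cacnb3, a calcium channel subunit (39.7 ± 0.451 against 90.7 ± 3.94 CPM, log2 fold change -1.19 with SE 0.21, adjusted p = 0.00204 by edgeR). Socs2, Tmem150c and Relb had edgeR adjusted p = 0.0833, 0.202 and 0.0963. Ccr7, the receptor that guides mature dendritic cells and lymphocytes to nodes, stood at 16.4, 24.01 and 23.4 CPM in lung and at 3.59, 3.11 and 2.53 CPM in the cell line, and it was named after its values were seen.

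Genes found across dendritic cells rose without exception, 10 of 10, with a median log2 fold change of 4.31. Flt3 and Zbtb46 are 2 of them, and the other 8 all rose. Most of the list are also genes of macrophages or B cells. Cd74, the invariant chain of MHC class II, stood at 2234 ± 314 against 109 ± 34.4 CPM, and H2-Aa and H2-Ab1, MHC class II chains, at 1048 ± 276 against 42.8 ± 13.3 CPM and 788 ± 221 against 35.0 ± 10.6 CPM. These genes were at 4.86%, 4.09% and 4.44% of their lung level in the cell line, near the shares of Clec9a and Xcr1.

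**Figure D5:**
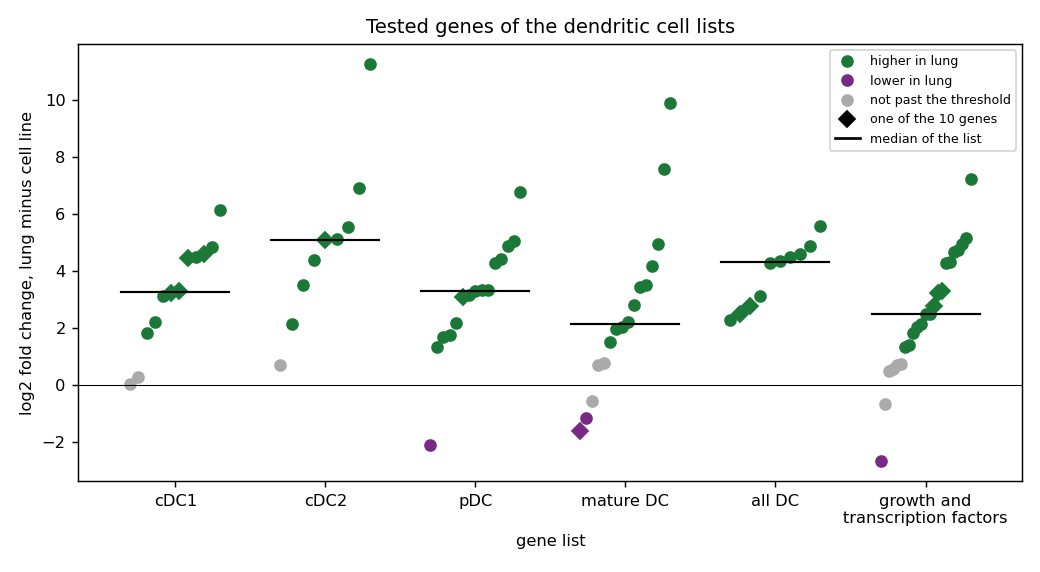
Log2 fold change of lung minus cell line for the tested genes of 6 dendritic cell lists, with diamonds for the 10 genes and bars at list medians. The cDC2 list has the highest median at 5.08 and the mature list the lowest at 2.12, where Fscn1 and Cacnb3 lie below 0.

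Growth factors and transcription factors of dendritic cells rose in 17 of 23 genes, 1 fell and 5 did not pass, with a median log2 fold change of 2.47. Other than Flt3, Irf8 and Batf3, 14 of 20 rose and 1 fell. Csf2, which encodes the cytokine GM-CSF, was the 1 that fell. It stood at 2.04, 3.27 and 1.71 CPM in lung and at 4.76, 19.4 and 21.6 CPM in the cell line, with replicate 1 lowest there (log2 fold change -2.70 with SE 0.59, adjusted p = 0.00581 by edgeR). Stat3, the signal transducer downstream of Flt3, stood at 185 ± 60.2 against 52.7 ± 5.62 CPM. The ligand of Flt3, Flt3l, stood at 30.7 ± 5.08 against 5.51 ± 2.44 CPM (log2 fold change 2.47 with SE 0.36, adjusted p = 0.000772 by edgeR), and was named after its values were seen. Id2, Nfil3, Bcl6, Zeb2 and Relb were the 5 below the threshold, and Nfil3, a factor upstream of cDC1 fate, was uneven in the cell line, with 52.2 CPM in replicate 1 and 12.9 and 12.2 CPM in replicates 2 and 3.

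Relatives of Irf8 and Batf3 were counted by family, and no test compared the families. All 9 Irf genes rose, Irf8 among them, with a median log2 fold change of 2.36, and they included Irf1, an interferon gamma response factor (186 ± 6.75 against 30.0 ± 2.06 CPM), and Irf9, a component of the interferon-stimulated complex (96.3 ± 5.17 against 18.7 ± 11.8 CPM). Of 8 Batf and Jun family genes, the 3 Batf genes, Batf3 included, rose, Junb and Atf3 fell and Jun, Jund and Jdp2 did not pass (edgeR adjusted p = 0.532, 0.635 and 0.313). These counts, 3 higher and 2 lower of 8, are near the shares of 31.3% and 17.5% over all genes. Batf2 stood at 14.03 ± 5.29 against 0.0924 ± 0.122 CPM and Batf at 7.62 ± 3.63 against 0.209 ± 0.0219 CPM, while Atf3, a stress-induced factor, stood at 18.5 ± 1.62 against 68.0 ± 22.8 CPM.

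Among the relatives of the lectin receptors, all 8 genes of the Clec9a cluster rose, Clec9a included. They included Clec7a, the beta-glucan receptor Dectin-1 (157 ± 4.18 against 0.869 ± 0.263 CPM). Of 9 Siglec genes, Siglech included, 8 rose. Cd22, a B cell receptor, had the highest level of them in lung (32.5 ± 5.34 against 9.15 ± 2.91 CPM) and the smallest log2 fold change, 1.83. Siglec15, a receptor of osteoclasts and some tumours, fell, at 3 counts over the lung samples against 162 in the cell line. Of 5 Cd209 genes tested, Cd209a included, 3 rose, with Cd209f at 2.73 ± 1.94 CPM against 1 count. Cd209b and Cd209c did not pass (edgeR adjusted p = 0.152 and 0.101). The Cd209 genes are close copies, so reads can be divided between them and single members at these levels are uncertain.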

How the data were processed

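RNA sequencing of 3 lung and 3 cell line samples was analysed. Values in the deposited table are unnormalized estimated counts for each transcript, which the authors made with tools that, per the submitters' processing notes, include FastQC 0.11.9, Salmon 1.4.0 and DESeq2 1.32.0 on GRCm39. The annotation release, filters and each tool's role are not given in sources used here. Of 76776 transcripts, 76521 (99.67%) matched GENCODE M21, a GRCm38 annotation used for names, lengths and gene models. They were summed by symbol and rounded. The unmatched 255 held 0.11% to 0.42% of counts. Levels per kilobase divide each transcript's CPM by its annotated length before summing.

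Groups came from the sample titles. Genes were tested in R 4.3.3 with edgeR 4.0.16 (quasi-likelihood F test, robust, TMM scaling, the package's expression filter, group only), with Benjamini-Hochberg adjustment over 15212 genes. SE is the absolute log2 fold change over the root of F. The fitting script was tested on simulated data. Alternatives used DESeq2 1.42.0, limma 3.58.1 (voom), other scaling and filters, a replicate block, a 2-fold minimum and samples left out. The 10 genes and 24 other lists were chosen with earlier results of these data known. Named genes were the 10, and per list the 3 highest in lung among those past the threshold in the main direction, the largest change in the other, and up to 3 below it; some are left out. For Flt3 and Fscn1 the 3 most correlated genes of 1 CPM or more were also named.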

Additional observations from a re-analysis of the deposited data

How the results depend on the processing

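All 10 genes kept their direction and their call in every alternative that tested them, 13 or 14 for each gene. Under a filter of at least 10 counts in every sample, 6 of the 10 genes were tested and 5 were higher, because that filter removes genes near 0 in the cell line; over all genes it gave 2555 higher and 1701 lower. Scaling by library size alone gave 1728 lower genes, with 75.1% of the called genes higher in lung, against 64.1% under TMM, and moved the median log2 fold change of all genes from 0.08 to 0.31; the 10 genes kept their directions. Leaving out lung replicate 2 and cell line replicate 1 together gave 5425 lower genes over all, for which the cause was not tested. The fold change of Xcl1 ranged from 4.73 to 7.32 on the log2 scale over the alternatives, that of Batf3 from 2.68 to 3.58, that of Zbtb46 from 2.14 to 3.23 and that of Fscn1 from -1.88 to -1.39. Same-numbered samples did not deviate together (correlations -0.03, 0.07 and -0.07). This cannot exclude a pairing, because a library stood apart in each group. With the replicate block 9 of the 10 genes were higher and 1 lower, and 4634 and 2526 genes over all. The edgeR adjusted p of each of the 10 genes was smaller with the block, from 1.26e-08 for Xcr1 to 0.000762 for Fscn1. Depth limits Xcl1, Cd209a, Xcr1 and Clec9a most in the cell line, with 6 to 32 counts over its 3 samples.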

Other observations

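Genes of antigen cross-presentation, the pathway for which cDC1 are known, went both ways. Of 10 tested, 6 rose, 1 fell and 3 did not pass, with a median log2 fold change of 2.33. The shares over all genes tested were 31.3% higher and 17.5% lower. B2m, the light chain of MHC class I, stood at 2052 ± 383 CPM in lung (SD over 3 samples) against 198 ± 87.1 CPM in the cell line, Tapbp, a chaperone of peptide loading, at 354 ± 52.8 against 64.6 ± 4.63 CPM, and Cybb, the phagocyte oxidase subunit, at 162 ± 64.5 against 9.71 ± 3.11 CPM. Sec61a1, the translocon channel, fell (235 ± 37.6 against 441 ± 94.4 CPM, log2 fold change -0.91 with SE 0.28, adjusted p = 0.0274 by edgeR). Sec22b, Rab43 and Lnpep had edgeR adjusted p = 0.536, 0.145 and 0.538.

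Of 3 Langerhans-type markers tested, 2 rose, Cd207 and Epcam. Epcam stood at 52.0 ± 6.53 CPM in lung against 2.50 ± 0.550 CPM in the cell line. Cdh1 did not pass, at 389 ± 194 against 449 ± 29.1 CPM (edgeR adjusted p = 0.704). Cd207, the Langerhans cell lectin langerin that lung cDC1 also carry, stood at 1.44, 1.68 and 0.987 CPM in lung, whereas no cell line sample had a count. Over the 6 samples, among 14167 genes of 1 CPM or more, the log2 levels most like those of Flt3 were those of Ddx60 (r = 0.999), Gm11839 (0.998) and Apol7e (0.997), and those most like Fscn1 were those of Fosl1, an AP-1 factor (r = 0.999), Aldh16a1 (0.999) and Morf4l2 (0.998). Fosl1 stood at 8.11, 8.49 and 4.10 CPM in lung and at 39.5, 99.2 and 100.5 CPM in the cell line. These correlations are over 6 samples that fall into 2 groups, and they are given as descriptions only.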
